A study of Homo sapiens with 15 samples.

Results

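The genes examined were 10 lysine demethylases of histones, KDM1A, KDM1B, KDM2A, KDM3A, KDM3B, KDM4A, KDM4B, KDM4C, KDM5B and KDM6B, out of 17272 genes with expression values. They were taken by name, and all 10 had a row in the expression table and were tested. Expression was measured by polyA RNA sequencing in LNCaP cells, an androgen-sensitive human prostate cancer cell line. All cultures were first deprived of androgen for 48 h in medium with charcoal-stripped serum. One group of 10 libraries was then exposed for 22 h to R1881, a synthetic androgen, at 1 nM with DMSO, per the labels. The other group of 5 libraries was exposed for the same time to the same R1881 plus 2 µM darolutamide, an antiandrogen drug. The combination is called R1881 + darolutamide here. Both groups therefore contained androgen, no library without R1881 was compared, and all cells were of 1 line, so the comparison asks how darolutamide shifted these genes in androgen-stimulated cells of that line. The labels name no separate culture for each library, while the study's methods call the replicates biological, and p-values measure only the spread between these libraries. Group sizes and the R1881 concentration differ between the labels and the study's methods, and the labels were followed.

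Lysine demethylases remove methyl groups from histone tails and so act against the methyltransferases that write these marks. KDM1A and KDM1B are amine oxidases that use FAD and act on mono- and dimethylated lysine. The other families carry a JmjC domain that uses iron, oxygen and 2-oxoglutarate. Of these, the KDM4, KDM5 and KDM6 families can also act on trimethylated lysine. In prostate cells several demethylases, including KDM1A, KDM3A, KDM4A, KDM4B and KDM4C, are known to modulate androgen-driven transcription. KDM3A, KDM4B and KDM4C are known to be induced by hypoxia.

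The libraries held 15830745 to 24316740 reads assigned to genes with R1881 and 21870398 to 25317567 with R1881 + darolutamide. Expression is given in the authors' normalised values, labelled CPM, which are read counts divided by 1 factor for each library and whose column sums ran from 1005403 to 1078567. The treatment was visible in androgen-induced genes. FKBP5, a chaperone gene induced by androgen, went from 1502 ± 87.4 CPM (SD, n = 10) to 152 ± 11.1 CPM (SD, n = 5), and KLK3, which encodes prostate-specific antigen, from 1588 ± 209 to 615 ± 55.9 CPM. All 7 androgen-induced genes examined were lower. The 7 luminal prostate markers used had values, with a summed level of 6298 to 7338 CPM with R1881 and 3624 to 3933 CPM in the combination. Of 12 markers of leukocytes, endothelium, fibroblasts and basal cells, 4 had a row in the table (COL1A1, COL3A1, LUM and VWF). None of these 4 was at 0 in any library, and their summed level was 9.04 to 13.4 CPM with R1881 and 17.1 to 34.7 CPM in the combination. In bulk RNA, fewer cells of a type and less RNA per cell cannot be told apart.

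Library numbers in the labels formed the runs 51 to 55 and 71 to 75, both R1881, and 86 to 90, all of the combination, so treatment and run cannot be told apart. A pair of combination libraries stood apart by the GC content of transcripts. Replicate 4 exceeded the mean of the other 4 combination libraries by a median of 0.96 on the log2 scale over the 1841 genes with at least 60% GC and was below it by a median difference of -0.21 over the 2276 genes under 40% GC. Replicate 3 had the opposite slope, with medians of -0.62 and 0.12 for the same classes. Among the R1881 libraries, replicate 6 stood highest for genes with at least 60% GC, with a median of 0.48 against the other R1881 libraries, followed by replicate 5 with 0.25. The 20 most abundant genes took 6.47% to 6.80% of the values with R1881 and 7.33% to 8.12% in the combination, and mitochondrial genes 2.65% to 3.02% and 3.12% to 3.94%. The part of these differences, and of the markers of other cells, in the results was not tested. Where the value or call of a member turned on these libraries, it is also given without replicate 4 and without both.

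Darolutamide treatment was accompanied by small changes in this family. KDM3B, KDM4A, KDM4C and KDM5B rose, by between 0.13 and 0.22 on the log2(CPM + 0.5) scale, and KDM3A fell by 0.15. The other 5 members did not pass the test (limma on log2(CPM + 0.5), Benjamini-Hochberg adjusted p below 0.05 over all 17272 genes). Calls were common in this comparison, with 46.6% of all genes called, 23.7% lower and 22.8% higher, so 5 of 10 members called is near the background share. The members' median log2 fold change was 0.10, and that of all genes was 0.00. Darolutamide and R1881 libraries overlapped for every one of the 10 members, whereas the groups did not overlap for 23.4% of all genes (12.6% lower, 10.8% higher). When libraries were scaled by their totals instead of by the authors' factors, 3030 genes were lower and 5326 higher in place of 4098 and 3946, and the members split into 0 lower and 5 higher.

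**Figure D1:**
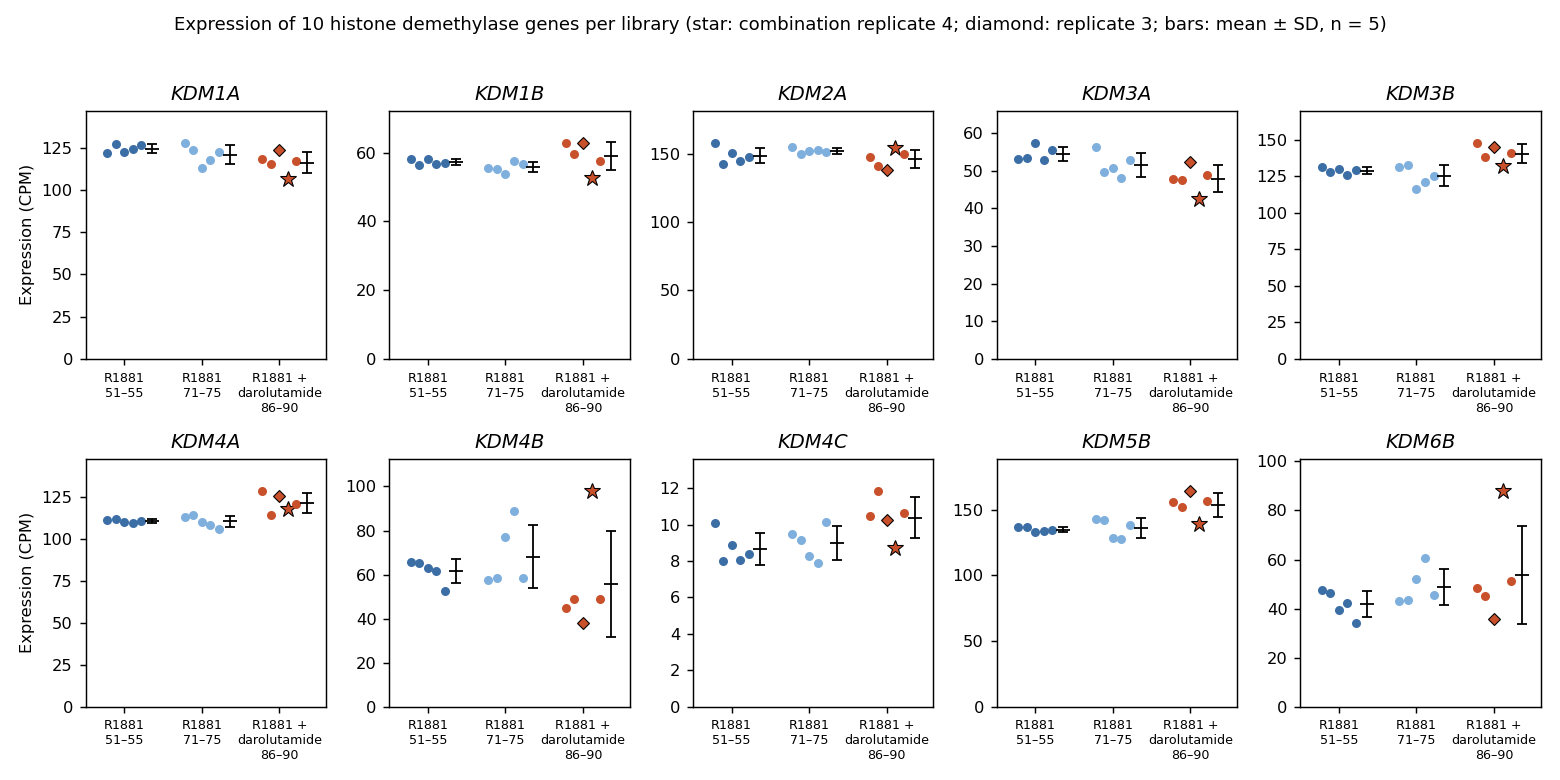
Expression of each of the 10 genes in CPM (vertical axis, from 0) in every library, in columns for R1881 libraries 51 to 55, R1881 libraries 71 to 75 and R1881 + darolutamide libraries 86 to 90; points are libraries, bars the mean ± SD of 5 libraries, the star combination replicate 4 and the diamond combination replicate 3. The star lies far above the other combination points for KDM4B (97.9 CPM) and KDM6B (87.9 CPM) and is the lowest combination point for KDM1A, KDM1B, KDM3A, KDM3B, KDM4C and KDM5B.

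Per kilobase of the canonical transcript in GENCODE, KDM1A was the most abundant member with R1881, at 39.8 ± 1.47 CPM per kb (SD, n = 10). It was followed by KDM4A at 24.6 ± 0.535, KDM2A at 20.4 ± 0.603, KDM3B at 18.9 ± 0.772 and KDM5B at 14.6 ± 0.558 CPM per kb. KDM1B at 12.5 ± 0.301, KDM4B at 11.6 ± 1.91 and KDM3A at 11.3 ± 0.625 CPM per kb had overlapping ranges and were not separated. Nor were KDM5B (13.7 to 15.4) and KDM4B (9.35 to 15.8), or KDM2A (19.3 to 21.3) and KDM3B (17.3 to 19.8). KDM6B stood at 6.75 ± 1.06 and KDM4C, the least abundant, at 2.04 ± 0.198 CPM per kb. The order depended on the length used. Per kilobase of all annotated exons merged, KDM1A dropped from the first to the fifth place at 6.70 CPM per kb, behind KDM4A (21.3), KDM3B (16.1), KDM2A (14.5) and KDM1B (10.1). In the combination KDM1A (37.6 ± 2.04 CPM per kb of canonical transcript, SD, n = 5), KDM4A (27.02 ± 1.29) and KDM4C (2.39 ± 0.257) kept these ranks, and KDM3B (20.9 ± 0.918) stood above KDM2A (19.8 ± 0.889), with SD ranges that overlapped.

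Promoter windows of 250 bases were read for all 10 members from RefSeq (GRCh38.p14), as the bases upstream of the transcript starts annotated there. These starts need not be those of GENCODE, and some windows of other members hold exon bases. The windows of KDM3B and KDM4A, which rose, and of KDM4B and KDM6B, whose values varied most between libraries, are printed 5′ to 3′, and none of these 4 holds exon bases. Capitals mark every match, on either strand, to the hypoxia core ACGTG, the GC box GGGCGG and the CCAAT box CCAAT, whose matches may share bases.
KDM3B, chr5:138352435-138352684, plus strand: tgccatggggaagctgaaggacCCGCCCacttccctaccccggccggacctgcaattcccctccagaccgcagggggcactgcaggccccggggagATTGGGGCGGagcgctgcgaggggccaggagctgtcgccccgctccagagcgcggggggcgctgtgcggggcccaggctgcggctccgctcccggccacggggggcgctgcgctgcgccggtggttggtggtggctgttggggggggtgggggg
KDM4A, chr1:43649899-43650148, plus strand: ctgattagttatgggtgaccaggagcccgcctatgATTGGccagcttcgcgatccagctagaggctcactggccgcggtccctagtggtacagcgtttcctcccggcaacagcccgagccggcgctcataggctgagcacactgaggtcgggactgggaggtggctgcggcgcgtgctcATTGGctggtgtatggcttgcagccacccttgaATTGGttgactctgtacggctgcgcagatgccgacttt
KDM4B, chr19:4968863-4969112, plus strand: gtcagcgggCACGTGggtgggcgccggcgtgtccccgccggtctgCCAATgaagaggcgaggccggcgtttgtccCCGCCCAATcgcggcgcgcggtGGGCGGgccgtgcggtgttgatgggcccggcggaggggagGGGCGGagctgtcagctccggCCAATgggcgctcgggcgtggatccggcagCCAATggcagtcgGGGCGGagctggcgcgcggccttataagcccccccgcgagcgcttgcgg
KDM6B, chr17:7833967-7834216, plus strand: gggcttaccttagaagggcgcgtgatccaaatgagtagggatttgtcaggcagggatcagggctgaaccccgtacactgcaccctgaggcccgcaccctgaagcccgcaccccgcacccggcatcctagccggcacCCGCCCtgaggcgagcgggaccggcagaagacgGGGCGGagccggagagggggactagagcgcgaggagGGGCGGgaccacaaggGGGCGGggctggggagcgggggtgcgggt
The window of KDM4A holds 3 CCAAT boxes and 0 GC boxes, and that of KDM6B 4 GC boxes and 0 CCAAT boxes. A second annotated KDM6B window, chr17:7839667-7839916, is not printed since it holds 13 exon bases, and it had 50.4% GC and neither box. KDM4B has 4 of each, and 2 matches to the hypoxia core that come from 1 palindrome read on both strands. KDM3B has 2 GC boxes and 1 CCAAT box. GC content was 76.4% for KDM3B, 61.2% for KDM4A, 75.6% for KDM4B and 70.4% for KDM6B, against a median of 58.0% over 35116 promoter windows of the same length. The hypoxia core was present in 18.5%, the GC box in 42.6% and the CCAAT box in 32.0% of all windows. A match is only a description of the letters in this window.

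KDM1A (LSD1; chr1:23019443-23083689, plus strand, GRCh38) removes mono- and dimethyl marks from lysine 4 of histone H3 within the CoREST complex. Its level in the 10 R1881 libraries had a lowest value of 113, a median of 123 and a highest value of 128 CPM, and R1881 + darolutamide replicates 1 to 5 had 118, 115, 124, 106 and 117 CPM. Combination replicate 4 was below every R1881 library and the other 4 lay inside their range. The log2 fold change was -0.08 (SE 0.037), which did not pass (limma, adjusted p = 0.0854). KDM1A passed without combination replicate 3 (-0.10, limma, adjusted p = 0.0374). It did not pass without replicate 4 (-0.05, adjusted p = 0.259) or without both (-0.07, adjusted p = 0.166). In GENCODE the span of an antisense long noncoding RNA, introns included, covers most of the merged exons of KDM1A. The strand setting of the counting is not given in the sources used here.

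KDM1B (LSD2; chr6:18155329-18223854, plus strand), the second FAD-dependent member, acts on the same mark. It was measured between 53.8 and 58.3 CPM with R1881, with a median of 56.6, and at 62.7, 59.5, 62.8, 52.7 and 57.5 CPM in combination replicates 1 to 5. Replicates 1 to 3 of the combination were above all R1881 libraries and replicate 4 was below all of them. The log2 fold change of 0.06 (SE 0.040) did not pass (limma, adjusted p = 0.238), while without combination replicate 4 it was 0.10 and passed (adjusted p = 0.0274), and without replicates 3 and 4 it was 0.08 and did not (adjusted p = 0.111). Within each library, KDM1A exceeded KDM1B by 1.11 ± 0.056 on the log2 scale with R1881 (SD, n = 10, range 1.023 to 1.19) and by 0.97 ± 0.045 in the combination (n = 5, range 0.907 to 1.021). The 2 ranges came close but did not overlap. The gap narrowed by 0.14 (SE 0.027, exact two-sided permutation test over libraries, p = 0.000666, adjusted p = 0.00167 over 5 paralog pairs), although neither gene passed alone. After the GC correction described with KDM4B the change was -0.15 and the ranges overlapped (exact permutation test, adjusted p = 0.0129).

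KDM2A (chr11:67119263-67258082, plus strand) removes dimethyl marks from lysine 36 of histone H3 and binds unmethylated CpG-rich DNA through a CXXC zinc finger. Values ran from 143 to 158 CPM with R1881 (median 151) and were 147, 141, 138, 154 and 150 CPM in combination replicates 1 to 5. The groups overlapped widely. The log2 fold change was -0.04 (SE 0.032, limma, adjusted p = 0.292), and its sign turned to 0.03 when libraries were scaled by their totals.

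KDM3A and KDM3B, which share the removal of mono- and dimethyl marks from lysine 9 of histone H3, moved in opposite directions. KDM3A (JMJD1A; chr2:86440647-86492716, plus strand) ranged from 47.9 to 57.3 CPM with R1881, with a median of 53.0, and had 47.8, 47.5, 52.4, 42.4 and 48.8 CPM in combination replicates 1 to 5. Replicates 1, 2 and 4 were below every R1881 library, and replicate 3 was close to the R1881 median. KDM3A fell by 0.15 on the log2 scale (SE 0.050, limma, adjusted p = 0.0221), a change in the mean of -9.69%. This call was lost when libraries were scaled by their totals (-0.08, adjusted p = 0.234), without combination replicate 4 (-0.11, adjusted p = 0.0701) and against R1881 libraries 71 to 75 alone (-0.11, adjusted p = 0.205). It was kept without combination replicates 3 and 4 together (-0.14, adjusted p = 0.0382).

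KDM3B (chr5:138352685-138437028, plus strand), whose promoter window is printed among the 4 sequences, had a lowest value of 116, a median of 128 and a highest value of 133 CPM with R1881. Combination replicates 1 to 5 had 148, 138, 145, 132 and 141 CPM. All but replicate 4 were above the R1881 range. KDM3B rose by 0.14 (SE 0.036, limma, adjusted p = 0.00331), a mean increase of 10.5%. The within-library difference of KDM3A from KDM3B was -1.26 ± 0.070 with R1881 (SD, n = 10; -1.41 to -1.18) and -1.55 ± 0.070 in the combination (n = 5; -1.62 to -1.46). No combination library reached the R1881 range. The difference between the groups was -0.29 (SE 0.038, exact two-sided permutation test, p = 0.000333, the smallest p that 3003 arrangements allow, adjusted p = 0.00167), and it kept its sign and its call in all alternatives run for this pair.

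**Figure D2:**
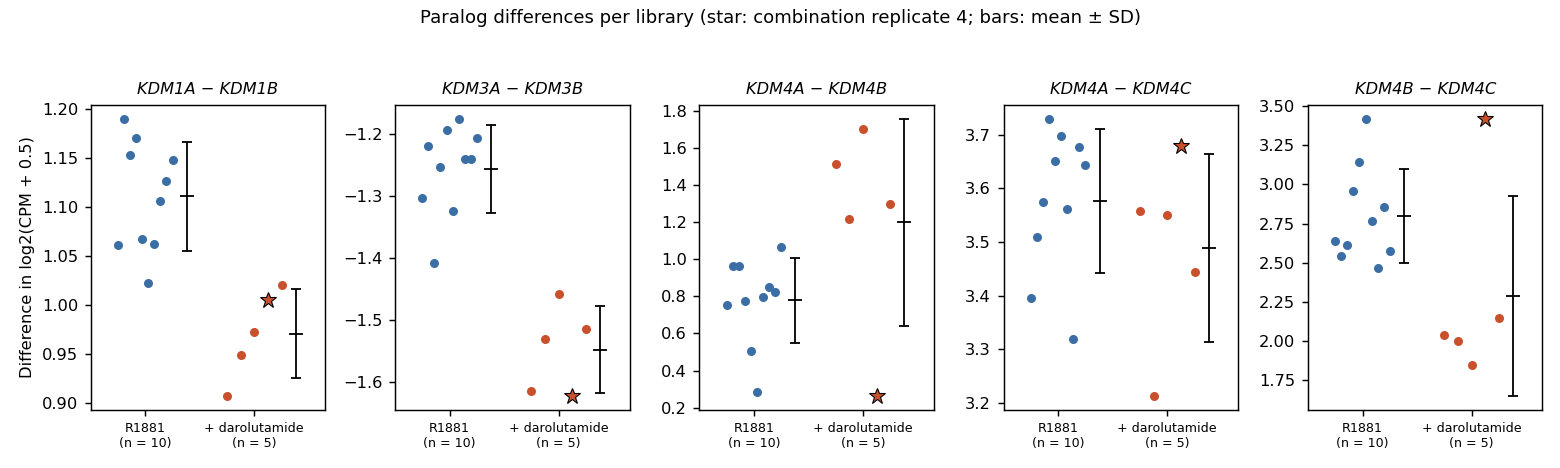
Difference in log2(CPM + 0.5) between 2 paralogs within each library (vertical axis), for the 5 pairs of KDM1, KDM3 and KDM4 genes, with R1881 (n = 10) and R1881 + darolutamide (n = 5); points are libraries, bars the mean ± SD and the star combination replicate 4. The groups are separate for KDM1A minus KDM1B and KDM3A minus KDM3B. For KDM4A minus KDM4B the star (0.264) lies just below the lowest R1881 point (0.284). The other 4 combination libraries lie above all R1881 points for this pair.

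The KDM4 genes encode enzymes that act on di- and trimethylated lysine 9 and lysine 36 of histone H3. KDM4A (chr1:43650149-43705518, plus strand) ranged from 106 to 114.3 CPM with R1881, with a median of 110.3, and had 128, 114.0, 125, 118 and 121 CPM in combination replicates 1 to 5. All combination libraries except replicate 2 were above the R1881 range, so the groups overlapped by a single library. KDM4A rose by 0.13 (SE 0.031, limma, adjusted p = 0.00192), a mean increase of 9.75%. Its exons lie within the span of an annotated protein-coding gene on the same strand. The span of KDM4A-AS1 on the opposite strand, introns included, covers 2743 of the merged exon bases of KDM4A. KDM4A-AS1 had a mean of 0.741 CPM with R1881 and 1.31 CPM in the combination (log2 fold change 0.57, limma, adjusted p = 0.00435), and the part of shared reads was not tested.

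KDM4C (chr9:6720863-7175648, plus strand) was the least counted member, with 132 to 293 reads per library. It ranged from 7.88 to 10.2 CPM with R1881, with a median of 8.62, and had 10.5, 11.8, 10.3, 8.72 and 10.6 CPM in combination replicates 1 to 5. Replicate 4 lay inside the R1881 range and the other 4 above it. KDM4C rose by 0.22 (SE 0.077, limma, adjusted p = 0.0272). The call was lost, with folds of similar size, without combination replicate 1 (0.22, adjusted p = 0.0563), 2 (0.17, adjusted p = 0.0982) or 5 (0.21, adjusted p = 0.0609), and against R1881 libraries 51 to 55 alone (0.24, adjusted p = 0.0503) or 71 to 75 alone (0.20, adjusted p = 0.122).

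KDM4B (chr19:4969113-5153598, plus strand) had the widest spread. With R1881 its lowest value was 52.4, its median 62.4 and its highest 88.8 CPM, and the highest libraries were replicates 5 (77.2) and 6 (88.8). Combination replicates 1 to 5 had 44.6, 48.9, 38.2, 97.9 and 48.7 CPM. Replicate 4 exceeded every R1881 library, whereas the other 4 combination libraries were below every one of them. The log2 fold change was -0.29 (SE 0.165, limma, adjusted p = 0.167) with all libraries and -0.51 (SE 0.103, adjusted p = 0.00041) without combination replicate 4. Without replicates 3 and 4 it was -0.43 (SE 0.109, limma, adjusted p = 0.00303). After each library's trend with transcript GC content was removed, the fold change was -0.26 (SE 0.055, adjusted p = 0.000276). KDM4B transcript is 61.4% GC, and the SD of its log2 level in the combination went from 0.52 to 0.157 with this correction. The corrected levels still overlapped, at 5.88 to 6.12 with R1881 and 5.62 to 6.02 in the combination, where replicate 4 was again the highest.

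For the KDM4 genes the differences within each library are given as well. KDM4A exceeded KDM4B by 0.78 ± 0.231 on the log2 scale with R1881 (SD, n = 10) and by 1.20 ± 0.556 in the combination (n = 5), a change of 0.42 that did not pass (SE 0.259, exact two-sided permutation test, p = 0.0586, adjusted p = 0.0733). Without combination replicate 4 the change was 0.65 (exact permutation test, adjusted p = 0.00125), without replicates 3 and 4 it was 0.56 (adjusted p = 0.00437), and after the GC correction 0.40 (adjusted p = 0.00333). KDM4B exceeded KDM4C by 2.80 ± 0.300 and 2.29 ± 0.638, a change of -0.51 (SE 0.301, exact permutation test, p = 0.0546, adjusted p = 0.0733). That change was -0.79 without replicate 4 (exact permutation test, adjusted p = 0.00125), -0.74 without replicates 3 and 4 (adjusted p = 0.00437) and -0.48 after the GC correction (adjusted p = 0.00389). KDM4A against KDM4C changed by -0.09 (SE 0.089, exact permutation test, p = 0.304, adjusted p = 0.304), with library values of 3.32 to 3.73 and 3.21 to 3.68 that overlapped widely.

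KDM5B (chr1:202724495-202808487, minus strand), which removes di- and trimethyl marks from lysine 4 of histone H3, had the smallest p of the 10. Its lowest value with R1881 was 127, its median 135 and its highest 143 CPM, and combination replicates 1 to 5 had 156, 152, 164, 139 and 156 CPM. Only replicate 4 fell inside the R1881 range. KDM5B rose by 0.18 (SE 0.039, limma, adjusted p = 0.000923), a mean increase of 13.4%, and it passed in every alternative run. As a description over the 15 libraries, the genes whose log2 values followed KDM5B most closely among 10357 genes with a mean of at least 10 CPM were PABPC1 (Pearson r = 0.970), KIAA0430 (0.963) and NDRG3 (0.957), and those closest to KDM3A were STX12 (0.952), CIRH1A (0.949) and IPO11 (0.942). These points share libraries, their GC trend and the treatment difference.

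KDM6B (JMJD3; chr17:7834217-7854796, plus strand) removes di- and trimethyl marks from lysine 27 of histone H3. It ranged from 34.3 to 60.5 CPM with R1881, with a median of 44.4, again highest in replicates 5 (52.0) and 6 (60.5). In combination replicates 1 to 5 it had 48.3, 45.1, 35.8, 87.9 and 51.1 CPM. Replicate 4 was above every other library, and the remaining 4 lay inside the R1881 range. The log2 fold change was 0.19 (SE 0.155, limma, adjusted p = 0.351), and without combination replicate 4 it turned to -0.01 (SE 0.110, adjusted p = 0.962). Without replicates 3 and 4 together it was 0.10 (SE 0.110, limma, adjusted p = 0.498). With the GC correction KDM6B passed at 0.20 (SE 0.039, limma, adjusted p = 0.00013). Its corrected log2 levels lay between 5.33 and 5.56 with R1881 and between 5.60 and 5.79 in the combination. The corrected levels of KDM4A (highest R1881 6.83, lowest combination 6.86) and KDM5B (7.17 and 7.22) did not overlap between the groups either. The share of all genes separated after the correction was not computed, so this separation cannot be set against a background. Without the correction the groups did not overlap for 23.4% of all genes.

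**Figure D3:**
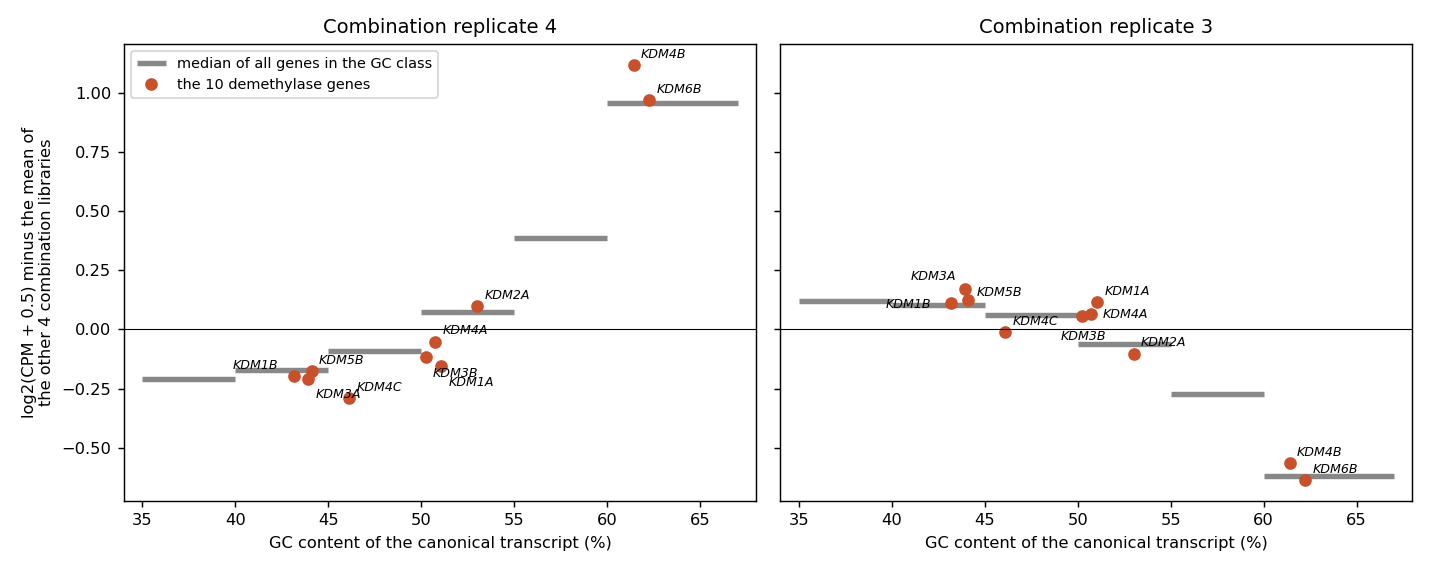
Deviation of 1 combination library from the mean of the other 4, in log2(CPM + 0.5) (vertical axis), against the GC content of the canonical transcript in percent (horizontal axis), for replicate 4 on the left and replicate 3 on the right; points are the 10 genes and grey lines the median of all genes in each GC class. KDM4B (1.12) and KDM6B (0.97) lie near the median of the class of at least 60% GC in replicate 4 (0.96), and both lie near the opposite median in replicate 3.

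KDM4B and KDM6B, with 61.4% and 62.2% GC in their transcripts, were the most GC-rich members, while the other 8 had between 43.2% and 53.0% and the median of all 14817 genes with a value was 47.9%. In combination replicate 4 KDM4B deviated by 1.12 and KDM6B by 0.97 on the log2 scale from the mean of the other 4 combination libraries. The other 8 members deviated by -0.29 (KDM4C) to 0.10 (KDM2A). In replicate 3 KDM4B deviated by -0.57 and KDM6B by -0.64, and the other members by -0.10 to 0.17. With the GC correction 3 members were lower (KDM1A, KDM3A and KDM4B) and 5 higher (KDM3B, KDM4A, KDM4C, KDM5B and KDM6B). In that fit 61.8% of 14817 genes were called, 31.8% lower and 30% higher, a larger share than without the correction. The correction was chosen after the data were seen.

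The 2 runs of R1881 libraries were compared to see how far the members varied without a change of treatment. None of the 10 members was called between libraries 71 to 75 and 51 to 55 (limma, 0 of 10 called). Of all genes 1.1% were called, 0.851% lower and 0.249% higher, so 0 of 10 is near that share. An unadjusted limma p below 0.05 was found for 0 of 10 members, against 2874 of all genes (16.6%). The members with the largest run differences were again the GC-rich ones. KDM6B averaged 41.9 CPM in libraries 51 to 55 and 48.9 CPM in 71 to 75, a log2 difference of 0.22 (limma, adjusted p = 0.543). KDM4B averaged 61.6 and 68.1 CPM, a difference of 0.13 (limma, adjusted p = 0.738). KDM3A averaged 54.4 and 51.4 CPM, a difference of -0.08 (limma, adjusted p = 0.467), beside its log2 fold change of -0.15 with darolutamide.

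**Figure D4:**
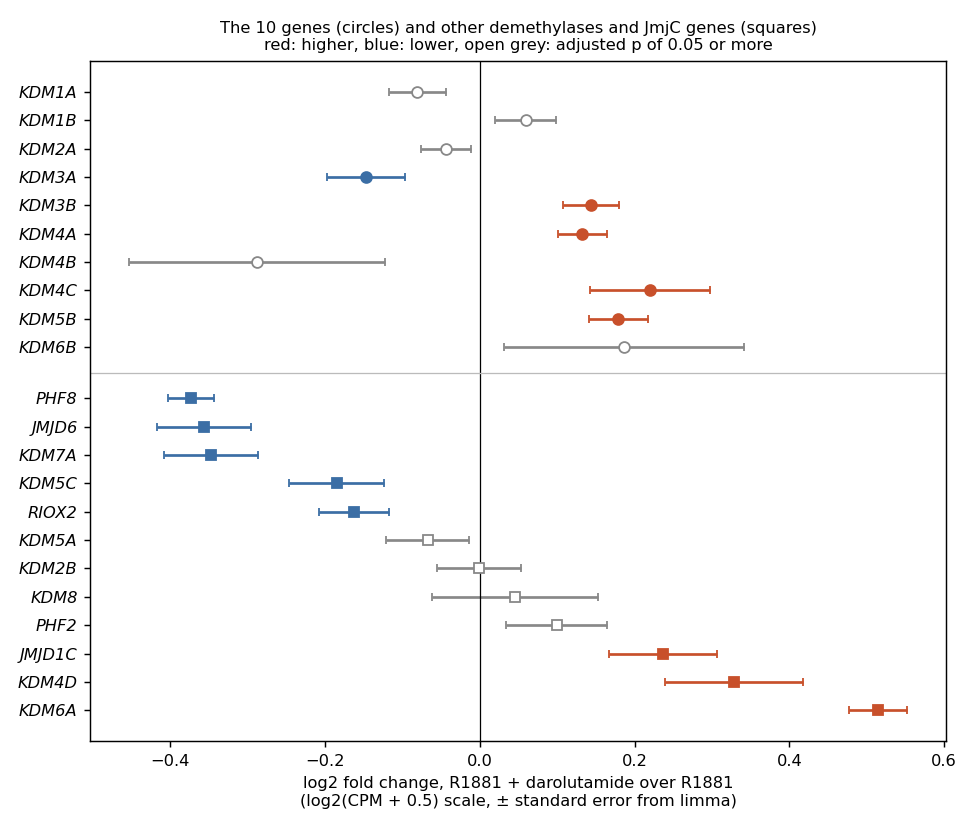
Log2 fold change of R1881 + darolutamide over R1881 on the log2(CPM + 0.5) scale (horizontal axis, ± SE from limma) for the 10 genes (circles) and 12 other demethylase and JmjC genes (squares); red was called higher, blue lower and open grey not called. The 10 genes lie between -0.29 and 0.22, while KDM6A (0.51) and PHF8 (-0.37) lie further out.

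Relatives of the members that were not among the 10 moved further in some cases. Of 14 other demethylase and related JmjC genes, 12 had values, of which 5 were lower, 3 higher and 4 not passed, with a median of -0.03. KDM6A (UTX), the X-linked paralog of KDM6B, had a mean of 274 ± 11.6 CPM with R1881 (SD, n = 10) and 392 ± 21.7 CPM in the combination (n = 5). KDM6A rose by 0.51 (SE 0.038, limma, adjusted p = 3.3e-09) and its groups did not overlap. PHF8, a demethylase of mono- and dimethylated lysine 9 of histone H3, went from 142 ± 4.28 to 110 ± 2.71 CPM, also without overlap, and fell by 0.37 (SE 0.029, limma, adjusted p = 8.02e-09).

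JMJD1C, related to KDM3A and KDM3B, rose by 0.24 (SE 0.069, limma, adjusted p = 0.00936) from 49.3 ± 4.36 to 58.2 ± 5.90 CPM, a call that was lost against R1881 libraries 51 to 55 alone (0.14, adjusted p = 0.109). KDM5C, a paralog of KDM5B with the same substrate, fell by 0.18 (SE 0.062, limma, adjusted p = 0.0204) from 108 ± 6.83 to 94.98 ± 11.4 CPM, a call that was lost when libraries were scaled by their totals (-0.11, adjusted p = 0.136) and against libraries 51 to 55 alone (-0.14, adjusted p = 0.148). The third KDM5 gene measured, KDM5A, had a log2 fold change of -0.07 (limma, adjusted p = 0.332) that turned to 0.00 with scaling by totals, and KDM2B, the paralog of KDM2A, had 30.5 ± 1.62 and 30.5 ± 2.84 CPM. KDM7A, JMJD6 and RIOX2 (listed as MINA) were also lower, by 0.35, 0.36 and 0.16 on the log2 scale, and KDM4D was higher by 0.33, a call also lost against R1881 libraries 51 to 55 alone. The difference between any of these genes and its paralog among the 10 was not tested.

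KDM1A works in a complex with CoREST proteins and histone deacetylases. Of 14 measured genes of that complex 8 were higher, 2 lower and 4 not passed, with a median of 0.15. PHF21A (BHC80), a reader of unmethylated lysine 4, rose by 0.37 (SE 0.039, limma, adjusted p = 3.6e-07) from 27.3 ± 0.992 to 35.5 ± 1.42 CPM. ZNF217, a zinc-finger repressor that binds the complex, fell by 0.20 (SE 0.033, limma, adjusted p = 7.07e-05) from 163 ± 6.10 to 142 ± 4.85 CPM. Also called higher were RCOR1, RCOR2, RCOR3, HDAC1, ZMYM3 and CTBP1, among others, and HMG20B was lower. CTBP1 and HMG20B varied widely between combination libraries, with SDs of 28.5 and 32.0 CPM around means of 64.5 and 67.2 CPM.

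Methyltransferases that write the marks removed by the members, listed with other subunits of their complexes, were mixed. For lysine 4 of histone H3, 3 of 13 genes were higher, 2 lower and 8 not passed (median -0.06). KMT2C rose by 0.46 (167 ± 9.48 to 230 ± 13.5 CPM, limma, adjusted p = 1.61e-07) and SMYD3 by 0.44 (27.5 ± 1.90 to 37.4 ± 1.44 CPM; adjusted p = 1.17e-06). These 13 include subunits that are not methyltransferases, such as DPY30, which was called lower (-0.16, limma, adjusted p = 0.00378). For lysine 9, 1 of 7 was higher, 2 lower and 4 not passed (median 0.03). SUV39H1, which trimethylates this residue, fell by 0.43 (11.6 ± 1.20 to 8.44 ± 0.847 CPM, limma, adjusted p = 0.00014) and SETDB1 rose by 0.12 (67.2 ± 3.49 to 73.1 ± 3.62 CPM; adjusted p = 0.0261).

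The 4 genes of the complex that methylates lysine 27 gave 1 lower, 1 higher and 2 not passed. The catalytic subunits EZH2 and EZH1 moved in opposite directions, EZH2 falling by 0.32 (33.1 ± 2.73 to 26.4 ± 2.19 CPM, limma, adjusted p = 0.000512) and EZH1 rising by 0.28 (21.3 ± 1.47 to 26.0 ± 2.32 CPM; adjusted p = 0.000894). Among 6 methyltransferases of lysine 36, 2 were higher, 1 lower and 3 not passed (median 0.04). These were SMYD2 at 0.31 (3.68 ± 0.431 to 4.67 ± 0.377 CPM, limma, adjusted p = 0.00426) and NSD1 at 0.14 (162 ± 8.30 to 179 ± 12.1 CPM; adjusted p = 0.0159), with NSD2 (listed as WHSC1) lower.

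JmjC demethylases need 2-oxoglutarate, and a list of 17 genes of its metabolism and of the succinate and fumarate steps that follow it had 8 lower, 1 higher and 8 not passed (median -0.09). The succinate dehydrogenase genes SDHA, SDHB, SDHC and SDHD and the fumarase gene FH, which do not act on 2-oxoglutarate itself, were among those not passed. IDH1, the cytosolic isocitrate dehydrogenase, fell by 1.01 (1167 ± 57.4 to 579 ± 34.7 CPM, limma, adjusted p = 8.11e-13), as did GLUD1, glutamate dehydrogenase (610 ± 27.2 to 303 ± 15.4 CPM; adjusted p = 2.21e-13). OGDH and DLST, of the complex that consumes 2-oxoglutarate, were also called lower, at -0.42 and -0.09 (limma, adjusted p = 6.29e-05 and 0.0157). The level of 2-oxoglutarate itself was not measured in these libraries. Of 16 other dioxygenases that use 2-oxoglutarate 6 were lower, 4 higher and 6 not passed (median -0.11). FTO, an RNA demethylase, rose by 0.35 (84.1 ± 3.84 to 107.5 ± 6.2 CPM, limma, adjusted p = 1.49e-06), and EGLN3, a prolyl hydroxylase, rose by 1.02 (6.45 ± 0.810 to 13.5 ± 0.395 CPM; adjusted p = 6.13e-09).

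Of 15 hypoxia-induced genes with values, which include KDM3A, KDM4B and KDM4C, 11 were lower, 2 higher and 2 not passed, with a median of -0.34. NDRG1, which is also an androgen-induced gene, fell by 2.78 (766 ± 37.0 to 111 ± 7.82 CPM, limma, adjusted p = 1.92e-18) and ANKRD37 by 2.09 (19.5 ± 1.03 to 4.23 ± 0.476 CPM; adjusted p = 1.1e-14). Within this list KDM3A was lower, KDM4C was, with EGLN3, 1 of the 2 genes that were higher, and KDM4B was not called with all libraries.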

How the data were processed

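PolyA RNA of 15 LNCaP libraries was sequenced as single-end reads, per the study's methods, aligned with STAR to GRCh38 and counted with featureCounts (bcl2fastq 2.17 for demultiplexing, per the submitters' processing notes). Aligner and counter versions, the annotation and the strand setting are not given in the sources used here. The deposited values, called CPM, are a signal: whole reads divided by 1 factor per library. Of all values, 100% gave whole reads within 0.001 reads, and on those reads edgeR called 3943 genes lower and 4106 higher. Groups came from the labels.

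All 17272 genes were fitted with limma 3.58.1 (R 4.3.3) on log2(CPM + 0.5), with trend and Benjamini-Hochberg adjustment at 0.05. Fold changes are on this log2 scale and understate changes of low genes. Paralog pairs were tested by exact two-sided permutation over libraries, adjusted over 5 pairs. Gene positions and lengths are from GENCODE v44 and promoters from RefSeq. On simulated data for 17272 genes limma recovered 63 of 100 genes changed by 0.5 and 12 of 100 changed by 0.25 on the log2 scale, with 5 false calls. Only these genes were changed in the simulation and no GC trend was simulated, whereas 46.6% of genes were called in the data. The adjustment is looser where many genes change, so these rates do not describe the recovery in this comparison.

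The members, lists and tests were chosen with earlier results of these data known. Named genes were the 10 members, their paralogs, KLK3 and FKBP5, up to 2 genes of smallest p per list and, for the member of smallest p in each direction, the 3 genes closest in pattern. Other genes named in the text were chosen after their values were seen. These were KDM7A, JMJD6, RIOX2, KDM4D, NSD2, DPY30, KDM4A-AS1 and the further genes of the CoREST and 2-oxoglutarate lists. Alternatives tried were the pseudocount, a filter on low values, scaling by library totals, edgeR 4.0.16, DESeq2 1.42.0, a replicate block, single R1881 runs and leaving out libraries.

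After seeing the data, a GC correction was added, which removed a natural spline with 5 degrees of freedom on transcript GC content from each library over 14817 genes, and so was a fit to replicates 1 to 5 of each group without the block. A few items are not reported here.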

Additional observations from a re-analysis of the deposited data

Results flagged for a closer look

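Of 70 gene and group combinations checked for a library far from the others, 3 had one, and chance alone gives about 1 in 20. KDM4B had 97.9 CPM in R1881 + darolutamide replicate 4, while the other 4 combination libraries lay between 38.2 and 48.9 CPM. FKBP5 had 133 CPM in the same library, below the 154 to 162 CPM of the other 4. KDM5C had 123 CPM in R1881 replicate 6, above the 99.1 to 111 CPM of the other R1881 libraries.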

How the results depend on the processing

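The number of members called lower, 1 in the reported fit, was 0 with scaling by library totals and 0 against R1881 libraries 71 to 75 only, 2 without combination replicates 3 and 4 together, and 1 to 2 with single libraries left out. It was 3 with the GC correction and 0 with replicates 1 to 5 of both groups only, no block, both added after seeing the data. The number called higher, 4, was 3 to 5 with single libraries left out. The labels number replicates in both groups, but same-numbered libraries shared only a number: the correlations of their deviations were -0.06, -0.02, 0.34, -0.03 and -0.14, and 1 of 5 was closest to its own number. With the replicate block 0 members were lower and 1 higher. Over 1 left-out library the change in KDM4A minus KDM4B ran from 0.29 to 0.65 and in KDM4B minus KDM4C from -0.789 to -0.397. Both passed with the GC correction (0.40 and -0.48). They also passed without combination replicates 3 and 4 together (0.56 and -0.74).

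Of the other demethylases, 3 in place of 5 were lower with scaling by library totals and 1 in place of 3 was higher against R1881 libraries 51 to 55 only. Values near 0 changed sign. Scaling by library totals gave KDM2A 0.0281, KDM5A 0.00351, KDM2B 0.0697 and, between R1881 runs, KDM4A 0.00287. KDM2B was 0.00642 with edgeR, 0.0128 with DESeq2, 0.0262 with the GC correction, 0.00653 with and without the replicate block on replicates 1 to 5, 0.0189 against libraries 51 to 55 and -0.0498 to 0.0224 with single libraries left out. KDM6B ran from -0.00718 to 0.314 with single libraries left out. Between R1881 runs KDM4A then ran from -0.0166 to 0.0107 and KDM5B from -0.00798 to 0.0341. The cause was not tested. KDM3A and KDM4C lost their calls with the replicate block and with replicates 1 to 5 only, KDM3B and KDM4A only with the block, and KDM5B in none of the alternatives run. KDM1A passed with the GC correction, without R1881 replicate 5 and without combination replicate 3, and KDM1B with scaling by library totals and without combination replicate 4. Depth limits KDM4C most, at 132 to 293 reads.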
